A study of Mus musculus with 28 samples.

Results

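The 38 imprinted genes described here were taken by symbol from the authors' table of 53564 gene symbols, and all 38 were found. Of these, 23 are grouped here as expressed mainly from the paternal copy and 14 as expressed mainly from the maternal copy, and Gnas gives transcripts of both kinds. The grouping holds for at least some mouse tissues, and which copy was active in the cells used here was not measured. They lie in 18 imprinted loci. All 38 passed the filter on low values (at least 1 scaled TPM, defined below, in at least 2 of 16 libraries), which kept 26820 genes in all. The members were listed by gene name, and the list was chosen with earlier results of these data known.

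The study followed mouse C57BL6 embryonic stem cells towards primordial germ cells (PGCs, from which eggs and sperm later arise) and early meiosis, and asked how telomere length bears on that path. LT cells were wild type with long telomeres. ST cells carried the knockout of Terc, the RNA template of telomerase, at generation 4 and had short telomeres. RT cells had Terc rescued, and the sources used here do not give how, or from which line, they were made. Each line was kept for 2 days as epiblast-like cells, then for 1 day with BMP4 at 500 ng/ml, SCF at 100 ng/ml, EGF at 50 ng/ml and LIF at 1000 IU/ml, which gave the 1dEB groups. PGC-like cells, taken 4 days into the induction, were aggregated with Actin-GFP somatic cells of female E12.5 gonads, grown for 1 day with 3 µM retinoic acid and sorted as GFP-negative cells, which gave the 1dMeioLC groups. PGCs from E10.5 embryos, sorted with CD61 and SSEA1 antibodies, were profiled at once (E10.5PGC) or following that co-culture (PGC-1dMeioLC). These 8 groups had 2 libraries each, and epiblast-like and 4-day PGC-like cells were not analysed here. The labels give no batch and do not say whether both libraries of a group came from separate cultures, so p-values measure only the spread between these libraries.

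Imprinted genes are expressed from 1 parental copy because DNA methylation laid down in the egg or the sperm marks the copies at a control region. In PGCs that methylation is erased, so that each germ cell can later set marks of its own sex. Many of these genes act on growth, with Igf2 and Mest among the paternally expressed genes and H19, Igf2r, Grb10, Cdkn1c and Phlda2 among the maternally expressed ones. The values here add up the RNA of both copies, so that loss of imprinting and a change of the active copy were not separated.

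H19 and Mest, the pair of members with the largest differences between lines, each carry a microRNA gene within them. RefSeq (GRCm38.p6) places miR-675 in H19 on chromosome 7 and miR-335 in Mest on chromosome 6. Their mature sequences are shown, 5′ to 3′, with the seed (bases 2 to 8) in capitals. No 2 of the 4 seeds were the same, and the levels of the microRNAs themselves were not measured.
mmu-miR-675-5p: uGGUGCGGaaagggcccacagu
mmu-miR-675-3p: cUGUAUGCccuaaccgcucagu
mmu-miR-335-5p: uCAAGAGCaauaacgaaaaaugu
mmu-miR-335-3p: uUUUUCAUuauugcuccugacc

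Promoter windows of 300 bases (250 before to 50 after the start, RefSeq, GRCm38.p6) were used for 31 of the 38 members. The windows were searched on both strands for the hexamer TGCCGC, read on the opposite strand as GCGGCA, which ZFP57, a protein that keeps imprints methylated in mouse embryos and stem cells, is known to bind when methylated. The hexamer lay in 11 of 49 windows (22.4%), from 10 of the 31 genes, against 11.6% of all 32851 RefSeq windows. The 11 include 2 windows of Mest that overlap almost fully. By copy it was in 8 of 29 windows of paternally expressed genes and in 3 of 16 of maternally expressed ones. The windows also differed in CG content, with a median of 13 CpG dinucleotides in member windows and of 7 in all windows. A match describes these letters only, and neither methylation nor ZFP57 binding was measured. Below are the windows of Mest and Nnat, which were lower in ST and RT 1dEB, and of Meg3, which was higher. That of Peg3, which did not pass the test there on the scale used below, is shown too. For each gene the window with most matches is shown, and another window each of Mest and Meg3 held 0. Igf2, Snrpn and Zdbf2, which changed at least 2-fold in ST 1dEB, each had 1 window with the hexamer. Windows of Igf2r, Airn, Dlk1, Dio3, Phlda2, Slc22a18, Gnas, Ppp1r9a, Magel2, Rian and Mirg, which changed at least 2-fold there too, held 0. Grb10, Plagl1, Zim1 and Nap1l5, not called there on the scale used below, each had 1 window with the hexamer. Whether the hexamer went with changes in level was not tested. Capitals mark the hexamer, which occurs 2 times in the Mest window (chr6:30737800-30738099, plus strand), 1 time each in those of Nnat (chr2:157559828-157560127, plus strand) and Meg3 (chr12:109540746-109541045, plus strand), and 0 times in that of Peg3 (chr7:6730370-6730669, minus strand).
Mest: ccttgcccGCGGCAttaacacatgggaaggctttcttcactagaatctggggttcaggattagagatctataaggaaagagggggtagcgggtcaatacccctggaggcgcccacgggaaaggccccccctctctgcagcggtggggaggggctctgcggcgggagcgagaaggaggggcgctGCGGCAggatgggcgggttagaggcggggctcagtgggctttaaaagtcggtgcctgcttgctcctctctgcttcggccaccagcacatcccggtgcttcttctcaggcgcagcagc
Nnat: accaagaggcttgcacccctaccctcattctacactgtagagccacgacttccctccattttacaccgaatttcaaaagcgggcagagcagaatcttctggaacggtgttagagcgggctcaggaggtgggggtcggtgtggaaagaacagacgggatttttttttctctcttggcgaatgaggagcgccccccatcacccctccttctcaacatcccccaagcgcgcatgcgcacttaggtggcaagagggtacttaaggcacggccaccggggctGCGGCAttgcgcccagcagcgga
Meg3: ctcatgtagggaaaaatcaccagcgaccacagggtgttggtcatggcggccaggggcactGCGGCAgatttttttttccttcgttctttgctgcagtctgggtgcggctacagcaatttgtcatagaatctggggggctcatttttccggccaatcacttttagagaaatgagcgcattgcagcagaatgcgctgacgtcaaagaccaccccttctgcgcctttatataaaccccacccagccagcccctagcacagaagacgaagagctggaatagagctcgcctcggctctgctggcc
Peg3: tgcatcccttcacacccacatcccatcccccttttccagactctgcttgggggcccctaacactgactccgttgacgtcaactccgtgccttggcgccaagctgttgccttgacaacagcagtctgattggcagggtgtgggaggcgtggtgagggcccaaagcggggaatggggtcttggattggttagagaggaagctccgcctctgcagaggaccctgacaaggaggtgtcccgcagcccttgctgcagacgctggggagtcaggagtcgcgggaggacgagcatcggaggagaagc

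Values were transcripts per 1000000 (TPM), from which the read depth cannot be known. Nuclear protein-coding genes held between 27.1% and 61.2% of TPM, and the lowest shares were those of both RT 1dEB libraries, so levels are given as scaled TPM, with the protein-coding total set to 1000000 in every library. A pair of genes on chromosome 17 that overlap ribosomal RNA sequence, Gm42418 and AY036118, held 17.4% to 31.2% of TPM in the 1dEB libraries, most in RT, and 0.656% to 7.14% in the others, with 7.07% to 7.14% in ST 1dMeioLC against 1.37% to 1.38% in LT 1dMeioLC. Mitochondrial genes held 14.1% to 15.02% in RT 1dEB and 6.89% to 9.10% in the other 1dEB libraries, and RT 1dEB also had the most genes at 1 scaled TPM or more, 22879 and 22039 against 15551 to 19956 elsewhere. These shares moved with stage and line, and their part in the results below was not tested. Fold changes are differences of log2(scaled TPM + 1), which understate changes of genes near 1, and each p is limma's, adjusted by Benjamini-Hochberg over 26820 genes, with a threshold of 0.05. Terc was listed at 0 in all 4 ST libraries and stood between 1.15 and 12.4 scaled TPM in the 8 LT and RT libraries, and the PGC-1dMeioLC pair, to which no label gives a knockout, had it listed at 0 as well. Replicate libraries correlated at 0.957 to 0.982 (Pearson, across genes). The TPM were from bulk cells, in which fewer cells of a type and less RNA per cell cannot be told apart.

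**Figure D1:**
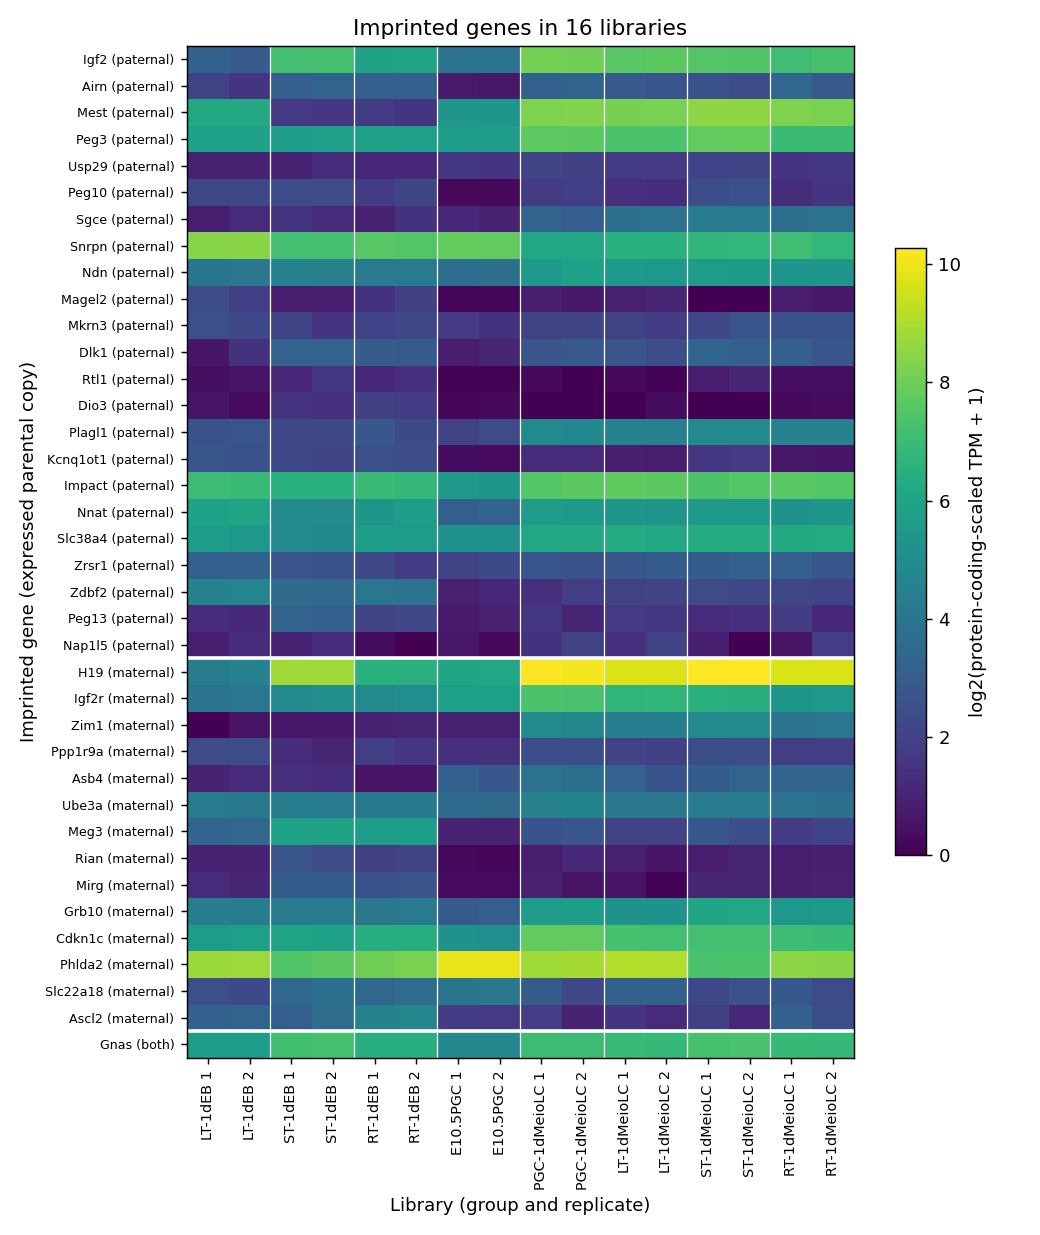
Level of each of the 38 imprinted genes in each of the 16 libraries, as log2(scaled TPM + 1) in colour, with paternally expressed genes at the top, maternally expressed genes below and Gnas last. H19 is bright in all 8 libraries of the 1dMeioLC stage and in both ST 1dEB libraries, Phlda2 is brightest in E10.5PGC, and Mest is dark only in ST and RT 1dEB.

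The levels of the 38 genes spanned a wide range. H19 had the highest value, 1229.8 scaled TPM in ST 1dMeioLC replicate 2, while Magel2 was listed at 0 in both ST 1dMeioLC libraries and Dio3 in both ST 1dMeioLC and both PGC-1dMeioLC libraries. Of the 38 genes, 20 had their lowest mean in E10.5PGC, and 11 had their highest in ST 1dMeioLC and 9 in PGC-1dMeioLC. The summed level of the 23 paternally expressed genes was 446 to 449 in E10.5PGC, 580.5 to 588 in ST 1dEB, 594 to 608 in RT 1dEB and 794 to 795 in LT 1dEB, and 1098 to 1327 in the 4 groups after co-culture. That of the 14 maternally expressed genes was 571 to 595 in LT 1dEB, 599 to 629 in RT 1dEB, 845 to 876 in ST 1dEB, 1156 to 1166 in E10.5PGC and 1430.5 to 2155 after co-culture. These sums follow their largest members, namely Mest, Igf2, Snrpn, Peg3 and Impact on the paternal side and H19 and Phlda2 on the maternal side.

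At 1dEB the ST cells differed from LT in imprinted genes of both kinds. H19 and Igf2 were many-fold higher, all 6 genes of the Dlk1-Dio3 locus were higher, and Mest was lower than in LT by a larger factor than any other member. Of the 38 genes, 14 were higher and 12 lower in ST, and 12 did not pass the test, while 35.2% of all genes tested were called, 19.2% higher and 16% lower. At least 2-fold changes were called for 12 higher and 7 lower members, against 15.1% of all genes, 10.7% higher and 4.4% lower. With TPM as deposited those 2-fold counts were 11 higher and 2 lower, and with quantile normalization 7 and 6, where 12 members were called higher and 15 lower in all. The median change was 0.18 over the 38 genes and 0 over all genes.

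H19, the non-coding RNA that accompanies Igf2, stood at 19.3 and 22.4 scaled TPM in the LT 1dEB libraries and at 444 and 445 in the ST libraries (log2 fold change 4.35, SE 0.06, adjusted p = 1.41e-10). The insulin-like growth factor gene Igf2 went from 8.20 and 6.65 to 145 and 149 (4.14, SE 0.08, adjusted p = 4.66e-10). The groups were far apart for both genes, although the active copy of H19 is the maternal one and that of Igf2 the paternal one. Igf2r, the receptor that clears Igf2, stood at 14.4 and 15.5 in LT and at 29.0 and 32.9 in ST (1.00, SE 0.07, adjusted p = 1.19e-06). Airn, the paternal antisense RNA that silences Igf2r in cis in mouse, stood at 3.10 and 1.94 in LT and at 7.64 and 9.03 in ST (1.42, SE 0.20, adjusted p = 3.02e-04). Igf2r and Airn overlap on opposite strands of chromosome 17 (mm10, 12682406 to 12769664 for Igf2r and 12741311 to 12860136 for Airn, GENCODE M21), and the library kit does not mark the strand, so reads from the overlap cannot be told apart.

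Mest, which encodes a hydrolase-fold enzyme (chromosome 6, 30723547 to 30748465), fell from 74.1 and 71.5 scaled TPM in LT to 2.24 and 2.12 in ST (log2 fold change -4.54, SE 0.08, adjusted p = 2.38e-10). Copg2, which overlaps Mest on the other strand and is itself imprinted in mouse, had means of 47.7 in LT and 6.69 in ST (-2.67, SE 0.11, adjusted p = 3.97e-08), and its reads cannot be told apart from those of Mest in the overlap. Among the 8 groups used here Mest stood at 39.8 or more in all libraries but those of ST and RT 1dEB.

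The Dlk1-Dio3 locus on chromosome 12 was higher in ST as a whole, in its paternally and its maternally expressed genes alike. Meg3, its maternal non-coding RNA (109541001 to 109571726), stood at 9.12 and 9.49 in LT and 58.0 and 60.7 in ST (2.55, SE 0.13, adjusted p = 2.19e-07). Rian, a maternal RNA that hosts small nucleolar RNAs, went from 0.97 and 0.97 to 5.30 and 4.22 (1.54, SE 0.18, adjusted p = 7.12e-05), and Mirg, a maternal host of microRNAs, from 1.38 and 1.08 to 7.26 and 7.19 (1.89, SE 0.20, adjusted p = 3.23e-05). The 3 maternal RNAs thus moved together and with no overlap between the groups. Dlk1, a paternal transmembrane protein related to Notch ligands, stood at 0.54 and 1.80 in LT and at 8.505 and 8.38 in ST (2.19, SE 0.26, adjusted p = 7.80e-05). Dio3, the deiodinase that inactivates thyroid hormone, stood at 0.50 and 0.23 in LT and at 1.96 and 1.65 in ST (1.05, SE 0.17, adjusted p = 6.09e-04). Rtl1, a paternal gene derived from a retrotransposon, was higher by 0.88 (SE 0.20, adjusted p = 0.0064), and microRNA genes lie on its other strand. Dio3 and Rtl1 were below the filter on low values with TPM as deposited and with quantile normalization, and have no value there.

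The Snrpn locus, which corresponds to the human Prader-Willi region, went mostly the other way. Snrpn, a spliceosome protein, stood at 339 and 349.6 in LT and 145 and 152 in ST (-1.21, SE 0.08, adjusted p = 8.95e-07), and Magel2, of the MAGE family, at 4.25 and 2.71 in LT and at 0.76 and 0.72 in ST (-1.34, SE 0.21, adjusted p = 4.93e-04). Mkrn3 was lower (-0.59, adjusted p = 0.044) and Ndn was higher (0.49, adjusted p = 0.0035). The ubiquitin ligase Ube3a, grouped here with the maternally expressed genes, did not pass the test (0.13, adjusted p = 0.20) but did with TPM as deposited (0.29, adjusted p = 0.0092). Within this locus, neighbours therefore changed in opposite directions.

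Other members that differed at least 2-fold lay in 6 further loci. Phlda2, a maternally expressed brake on placental growth, stood at 420.1 and 437 in LT and 179.6 and 205 in ST (-1.15, SE 0.06, adjusted p = 3.39e-07). Its neighbour Slc22a18, a transporter, went from 4.75 and 3.82 to 10.1 and 12.48 (1.22, SE 0.23, adjusted p = 0.002). These neighbours, both maternally expressed, moved in opposite directions. Nnat, a small membrane proteolipid, stood at 59.9 and 62.7 in LT and 28.7 and 27.2 in ST (-1.11, SE 0.10, adjusted p = 8.49e-06), and Zdbf2, a zinc-finger gene, at 22.2 and 24.8 in LT and at 10.7 and 10.1 in ST (-1.10, SE 0.17, adjusted p = 5.42e-04). Ppp1r9a, which encodes the actin-binding protein neurabin, stood at 4.27 and 4.15 in LT and at 1.49 and 1.11 in ST (-1.18, SE 0.15, adjusted p = 1.17e-04). All 3 were lower in both ST libraries than in either LT library. Gnas, which encodes the stimulatory G protein alpha subunit, went up from 51.5 and 52.9 to 142 and 149 (1.46, SE 0.04, adjusted p = 4.75e-09), and Peg13, a non-coding RNA within Trappc9, from 1.495 and 1.18 to 8.69 and 7.79 (1.99, SE 0.25, adjusted p = 1.27e-04). Among the 12 genes that did not pass the test was the whole Peg3 locus, where the zinc-finger gene Peg3 stood at 57.0 and 57.2 in LT and 52.7 and 54.2 in ST (-0.09, SE 0.05, adjusted p = 0.15), though Peg3 was called lower with quantile normalization (-0.16, adjusted p = 0.032).

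In ST 1dEB 19.2% of all genes were called higher and 16% lower, and the split of members by parental copy was counted on this scale only. Of the 23 paternally expressed genes, 7 were higher and 10 lower (median -0.09). Of the 14 maternally expressed genes, 6 were higher and 2 lower (median 0.33). Fibroblast and stroma markers moved with these genes: the summed level of 14 such markers was 99.8 to 104 scaled TPM in LT 1dEB, with 12 of 14 at 1 or more on average, and 2003 to 2026 in ST 1dEB, with 14 of 14. All 14 were called higher in ST. Of 11 gonadal somatic markers, 6 were higher and 2 lower, and their sum was 64.4 to 65.6 in LT and 91.3 to 93.2 in ST. Of 7 extraembryonic endoderm markers 4 were higher and none lower, with a sum of 4.43 to 6.69 in LT and 32.5 to 33.7 in ST. The part of these markers in the imprinted gene results was not tested. With TPM as deposited the changes of Ppp1r9a (-0.74), Magel2 (-0.81), Zdbf2 (-0.85), Nnat (-0.89) and Phlda2 (-0.96) were under 2-fold. With quantile normalization so were those of Igf2r (0.83), Slc22a18 (0.88), Rian (0.97) and Ppp1r9a (-0.97), and that of Airn was 1.00. All of these were still called. With a pseudocount of 0.1 the change of Magel2 was -2.05 and that of Dio3 2.10. With only the libraries compared in the fit, Dio3 missed the threshold (adjusted p = 0.055). With TPM as deposited so did Mkrn3 (-0.33, adjusted p = 0.14), Kcnq1ot1 (-0.22, adjusted p = 0.13) and Zrsr1 (-0.31, adjusted p = 0.11).

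**Figure D2:**
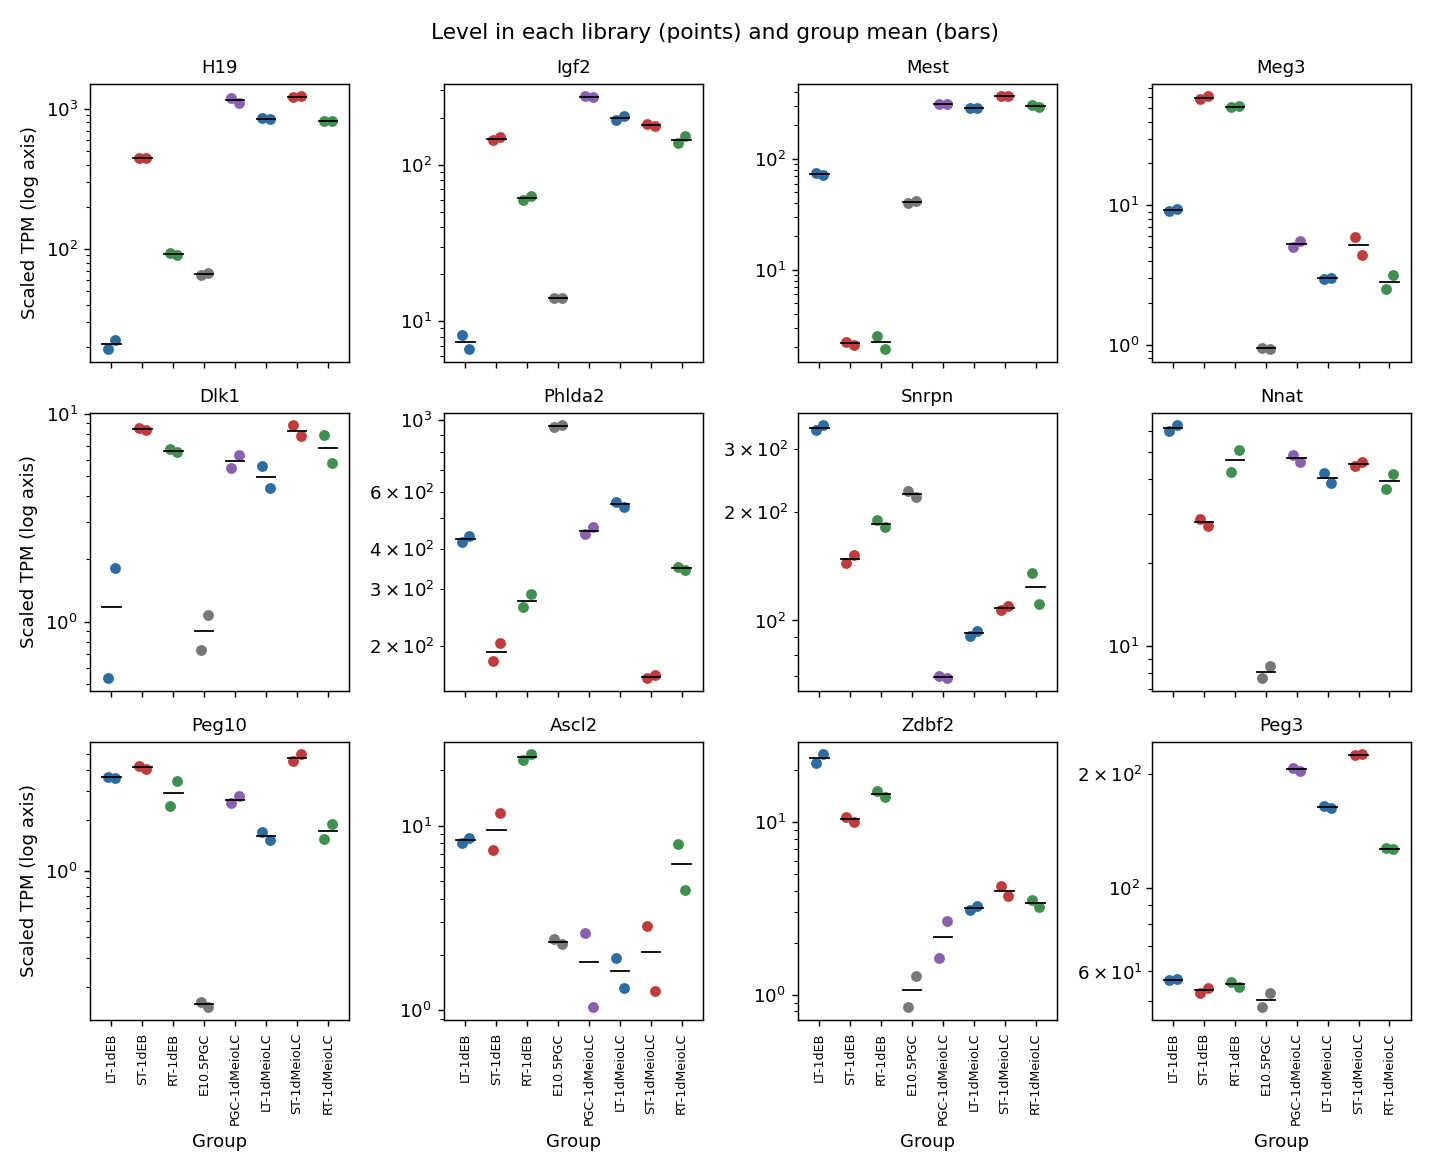
Scaled TPM (log axis) of 12 imprinted genes in each library (points, 2 per group) with the group mean (bar). H19 is lowest in LT 1dEB at 19.3 and 22.4, Mest is lowest in ST and RT 1dEB, between 1.93 and 2.56, and Phlda2 is lowest in ST 1dMeioLC at 159 and 163.

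The RT cells at 1dEB were lower than ST in H19 and Igf2 and, like ST, had Mest at a low level. Against ST, RT had 9 of the 38 genes higher and 7 lower, where 35.5% of all genes were called, 20.7% higher and 14.7% lower. At least 2-fold changes were called for 1 higher and 3 lower members, against 15.6% of all genes, 10.2% higher and 5.43% lower, and with TPM as deposited for 0 and 4. With quantile normalization 8 members were higher and 10 lower, and with TPM as deposited 1 was higher and 21 lower. With the latter the median over all genes moved from 0.09 to -0.38. H19 stood at 93.5 and 90.1 scaled TPM in RT (-2.26, SE 0.06, adjusted p = 1.48e-08 against ST) and Igf2 at 59.2 and 63.2 (-1.25, SE 0.08, adjusted p = 2.42e-06). Both lay between LT and ST with no overlap. Peg13 did so too, at 3.32 and 3.63 (-1.05, SE 0.25, adjusted p = 0.0085). Further members, among them Gnas, Phlda2, Nnat and Snrpn, also lay between LT and ST with no overlap in scaled TPM. With TPM as deposited Gnas still did, while Phlda2, Nnat and Snrpn did not. Mest stood at 2.56 and 1.93 in RT (0.02 against ST, adjusted p = 0.87), and its libraries overlapped with those of ST. Mest was called lower in RT than in ST with TPM as deposited (-0.27, adjusted p = 0.0020), where the libraries stood at 0.69 and 0.56 TPM in RT and 0.99 and 0.93 in ST with no overlap, and with quantile normalization (-0.18, adjusted p = 0.030). Meg3 stood at 50.8 and 51.6, a little under ST but not past the test (-0.21, adjusted p = 0.26), and was called lower with TPM as deposited (-0.82, adjusted p = 1.95e-04). Ascl2, a transcription factor of the trophoblast lineage, was higher in RT, at 22.6 and 24.3, than in ST, at 7.34 and 11.7 (1.25, SE 0.35, adjusted p = 0.018), and that call was lost with TPM as deposited (0.57, adjusted p = 0.13), with a pseudocount of 0.1 (1.33, adjusted p = 0.059) and without ST replicate 1 (0.95, adjusted p = 0.12), RT replicate 1 (1.30, adjusted p = 0.069) or RT replicate 2 (1.20, adjusted p = 0.090). Snrpn and Impact were higher in RT by 0.32 and 0.35 but lower with TPM as deposited (-0.32 and -0.30), each past the threshold. Cdkn1c and Phlda2 were higher by 0.48 and 0.52, and with TPM as deposited stood at -0.16 and -0.13, not past it.

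Against LT, the RT cells at 1dEB had 16 members higher and 8 lower, where 37.4% of all genes were called. The higher ones made up 66.7% of the members called and likewise 66.7% of all genes called. At least 2-fold changes were called for 9 higher and 2 lower members, against 17.1% of all genes, 14% higher and 3.07% lower. The counts were 12 and 16 with TPM as deposited and 12 and 13 with quantile normalization, with 4 and 4 and 5 and 2 of these at 2-fold or more, and the median over all genes moved from 0.15 to -0.17 with the former. Mest was lower in RT than in LT (-4.51, SE 0.08, adjusted p = 8.52e-10), H19 was higher (2.09, SE 0.06, adjusted p = 1.77e-08) and so was Igf2 (2.89, SE 0.08, adjusted p = 1.75e-08). All 6 genes of the Dlk1-Dio3 locus were called higher, with Meg3 at 2.34 and Dlk1 at 1.88, again with no value for Dio3 and Rtl1 under the other scalings. Rian, at 0.99, stood at 0.40 with TPM as deposited (adjusted p = 0.0385) and at 0.35 with quantile normalization (adjusted p = 0.0479). Peg13, called higher by 0.94, was not called with TPM as deposited (0.38, adjusted p = 0.14) or with quantile normalization (0.34, adjusted p = 0.19). Zrsr1, a splicing factor gene derived from a retrotransposed copy, stood at 3.65 and 2.40 in RT and 7.53 and 7.95 in LT (-1.14, SE 0.18, adjusted p = 6.82e-04). These comparisons share the LT and ST libraries with the one above, so their values stand side by side and are not independent. The stroma marker sum was 850.5 to 856.9 in RT 1dEB, between those of LT and ST, with 14 of 14 markers higher than in LT and 13 of 14 lower than in ST, and its part in these results was not tested. The call for Ascl2 against LT (1.39) was lost without RT replicate 2 (1.34, adjusted p = 0.060). With TPM as deposited, smaller changes against LT were those of Airn (0.69), Dlk1 (1.00), Mirg (0.73), Slc22a18 (0.60) and Ascl2 (0.85), and quantile normalization gave 0.82 for Airn, 1.15 for Dlk1 and 0.78 for Mirg, all still called, while a pseudocount of 0.1 gave 2.64 for Dio3.

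**Figure D3:**
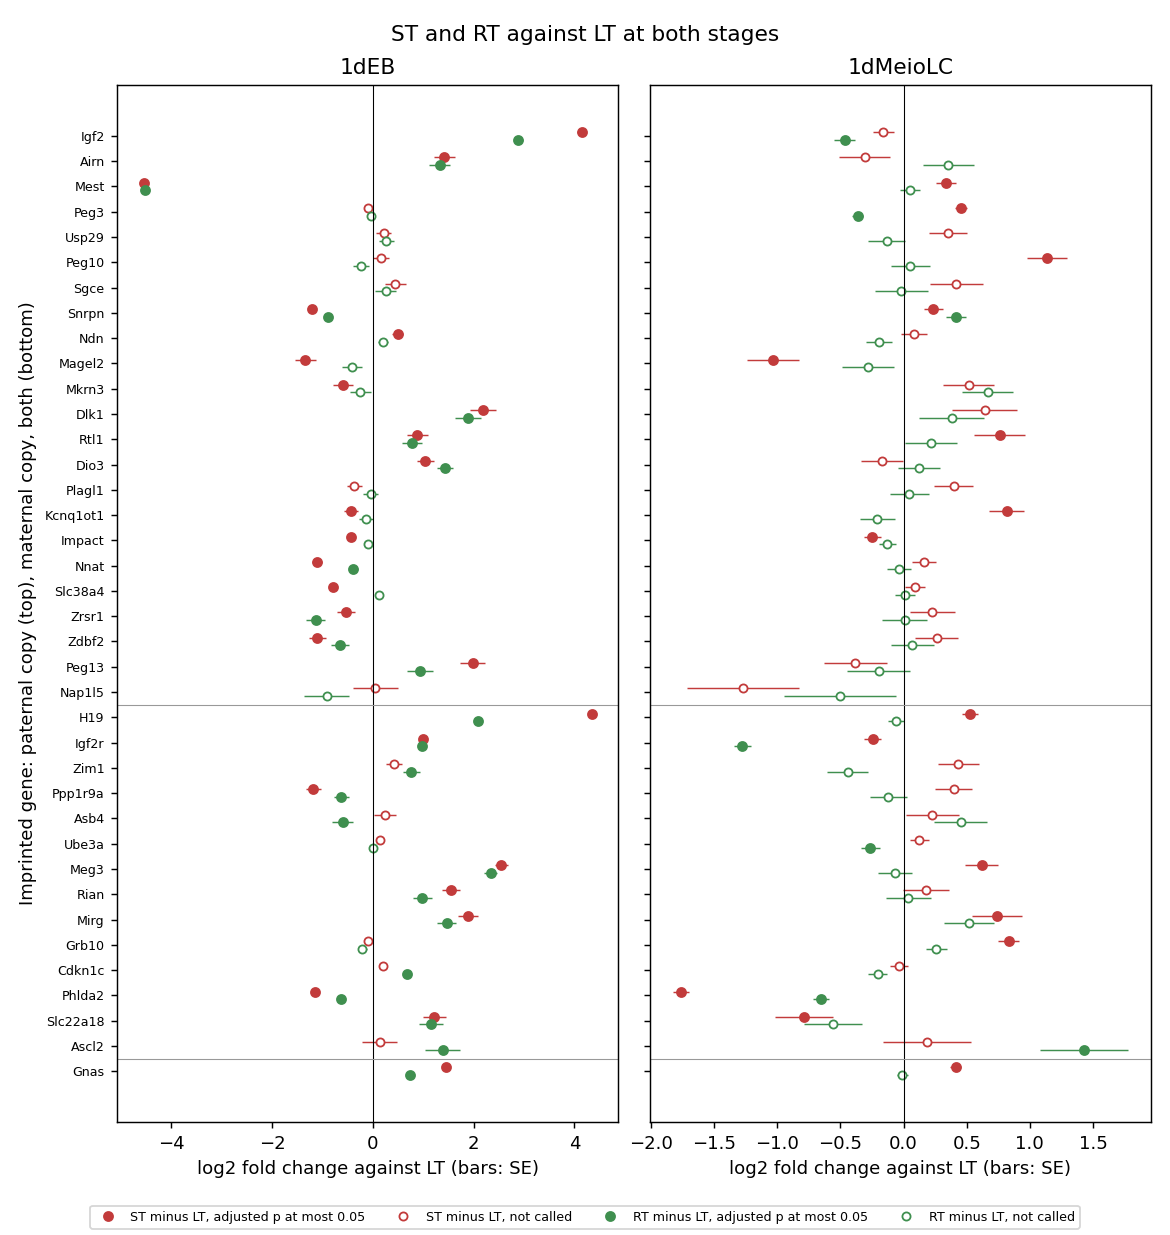
Log2 fold change (scaled TPM + 1) of the 38 genes in ST (red) and RT (green) against LT at 1dEB (left) and 1dMeioLC (right), with SE as bars; filled points have an adjusted p of at most 0.05, and the horizontal scales of the panels differ. At 1dEB the points reach from -4.54 for Mest to 4.35 for H19, and at 1dMeioLC from -1.76 for Phlda2 to 1.43 for Ascl2, and the 1dMeioLC point of Magel2 in ST is a fitted value for libraries listed at 0.

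One day into the meiotic co-culture Phlda2 was several-fold lower in ST than in LT, and Mest and H19 were somewhat higher. Of the 38 genes, 11 were higher and 5 lower in ST 1dMeioLC than in LT 1dMeioLC, where 28.8% of all genes were called, 16.9% higher and 11.9% lower. At least 2-fold changes were called for 1 higher and 2 lower members, against 11.2% of all genes, 5.87% higher and 5.34% lower. These 2-fold counts were 0 and 1 with TPM as deposited and with quantile normalization, and 4 and 2 with a pseudocount of 0.1. Phlda2 stood at 560.3 and 539 scaled TPM in LT and 159 and 163 in ST (-1.76, SE 0.06, adjusted p = 1.70e-07), so that ST was lower at both stages. Peg10, a retrotransposon-derived gene needed in the placenta, stood at 1.70 and 1.53 in LT and 4.54 and 4.99 in ST (1.14, SE 0.16, adjusted p = 5.21e-04), and its change was 0.90 with TPM as deposited and 0.84 with quantile normalization, both called. Magel2 was listed at 0 in both ST libraries and stood at 0.94 and 1.16 in LT, and its call (adjusted p = 0.0040) is given with no fold. Mest was at 289 and 289.7 in LT and 365 and 367 in ST (0.34, SE 0.08, adjusted p = 0.0089), so the difference was small and in the other direction than at 1dEB. H19 was at 856 and 845 in LT and 1221 and 1229.8 in ST (0.53, SE 0.06, adjusted p = 1.79e-04). Igf2 was at 194 and 206 in LT and 182 and 176 in ST and did not pass the test (-0.16, SE 0.08, adjusted p = 0.18), but did with TPM as deposited (-0.26, adjusted p = 0.037). Kcnq1ot1, the paternal antisense RNA that silences genes around Kcnq1, was at 0.84 and 0.77 in LT and 2.04 and 2.32 in ST (0.82, SE 0.14, adjusted p = 0.0016). Kcnq1 overlaps Kcnq1ot1 on the other strand, so that reads from the overlap cannot be told apart in any comparison. Late germ cell and meiosis markers differed beside these genes: all 8 were lower in ST, with a sum of 939 to 940.0 against 2524 to 2534 in LT. The gonadal somatic sum was 443.7 to 463.6 in ST and 355.4 to 364.5 in LT, with 3 of 11 markers higher and 3 lower. Early PGC markers summed to 217 to 226 in ST and 1004 to 1052 in LT, with 3 of 10 higher and 3 lower. Most of that LT sum was Dppa3 alone. Stroma markers summed to 813 in both ST libraries and 622 to 642 in LT, with 6 of 14 higher and 4 lower. Blood and endothelial markers summed to 2631 to 2639 in ST and 1861 to 1924 in LT, with 0 of 7 higher and 2 lower. The part of these lists was not tested. Without LT 1dMeioLC replicate 2 fewer members, and a smaller share of all genes, were called.

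In the RT 1dMeioLC cells 4 members were higher and 14 lower than in ST, where 29% of all genes were called, 8.87% higher and 20.2% lower. Against LT, 2 were higher and 5 lower, where 13.4% of all genes were called, 4.76% higher and 8.63% lower. At least 2-fold changes were called for 2 higher and 3 lower members against ST (10.1% of all genes, 4.15% higher and 5.93% lower) and for 1 higher and 1 lower against LT (3.87%, 1.86% higher and 2.01% lower). With TPM as deposited and with quantile normalization no member was 2-fold lower than in ST, where the changes of Igf2r (-1.03), Peg10 and Kcnq1ot1 were -0.92, -0.85 and -0.73 with the former and -0.81, -0.75 and -0.73 with the latter, all called. Phlda2 stood at 352 and 344 in RT, above ST (1.11, SE 0.06, adjusted p = 3.17e-06) and below LT (-0.66, SE 0.06, adjusted p = 1.81e-04). Its 3 groups did not overlap. The 8 late germ cell markers were all higher in RT than in ST, with a sum of 2042 to 2143, and of 10 early PGC markers 4 were higher and 3 lower, with a sum of 726 to 770.1. The part of both lists was not tested. Igf2r was at 42.7 and 43.5 in RT, 90.4 and 88.4 in ST and 105 and 107 in LT (-1.28, SE 0.07, adjusted p = 4.27e-06 for RT against LT). RT was thus the lowest for the receptor, and Igf2 itself was lower in RT than in LT by a smaller amount (-0.47, SE 0.08, adjusted p = 0.0056). Peg10 stood at 1.55 and 1.90 in RT (-1.08, SE 0.16, adjusted p = 7.29e-04 against ST) and Kcnq1ot1 at 0.57 and 0.55 (-1.02, SE 0.14, adjusted p = 4.57e-04). For both, RT lay below ST and did not pass the test against LT (adjusted p = 0.95 for Peg10 and 0.39 for Kcnq1ot1), and with a pseudocount of 0.1 the change of Kcnq1ot1 against ST was -1.78. Ascl2 was highest in RT here too, at 7.95 and 4.496 against 1.93 and 1.32 in LT (1.43, SE 0.35, adjusted p = 0.024). That call was lost with only the libraries compared in the fit (1.43, adjusted p = 0.062), without LT replicate 1 (1.59, adjusted p = 0.064), without LT replicate 2 (1.26, adjusted p = 0.15) and without RT replicate 1 (1.08, adjusted p = 0.14). The call against ST (1.24) was lost with only the libraries compared (adjusted p = 0.085), without ST replicate 2 (0.86, adjusted p = 0.16) and without RT replicate 1 (0.89, adjusted p = 0.16). Fewer members were called against ST without ST replicate 2, and against LT without LT replicate 2. Both fits also called a smaller share of all genes. Quantile normalization gave 4 higher and 4 lower members against LT, where 14.6% of all genes were called.

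The difference between ST and LT itself differed between the stages for 26 members, 13 in each direction, where 32.6% of all genes were called, 16.1% higher and 16.5% lower. For 7 higher and 12 lower members it was at least 1 on the log2 scale, against 20% of all genes, 8.18% higher and 11.8% lower, and with TPM as deposited for 4 and 11. Mest (4.87, SE 0.11, adjusted p = 9.17e-09), Igf2 (-4.30, SE 0.12, adjusted p = 1.52e-08) and H19 (-3.83, SE 0.09, adjusted p = 9.17e-09) changed most. Phlda2, lower in ST at both stages, differed by -0.61 (SE 0.09, adjusted p = 5.8e-04). The difference between ST and LT was also called lower at 1dMeioLC for all 14 stroma markers, and the part of this was not tested.

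From 1dEB to 1dMeioLC the LT cells had 20 members higher and 9 lower (57.2% of all genes called, 23.7% higher and 33.5% lower). The ST cells had 19 higher and 13 lower (55.8%, 21.8% higher and 34% lower), and the RT cells 18 and 15 (64.8%, 19.8% higher and 45% lower). In LT the largest rises were those of H19 (5.29, SE 0.06, adjusted p = 8.5e-12) and Igf2 (4.58, SE 0.08, adjusted p = 3.41e-11), while in ST and RT it was that of Mest, by 6.85 (SE 0.08, adjusted p = 6.0e-12) and 6.54 (SE 0.08, adjusted p = 3.4e-12). Zim1, a maternally expressed zinc-finger gene next to Peg3, stood at 20.1 and 20.7 in LT 1dMeioLC, against 0 and 0.46 in LT 1dEB. Meg3 fell in all 3 lines, with changes of -1.36 in LT, -3.29 in ST and -3.77 in RT. Zdbf2 changed by -2.55 in LT, -1.19 in ST and -1.83 in RT, and Snrpn by -1.89 in LT and -0.45 in ST. With TPM as deposited the change of Meg3 was -0.71 in LT and -2.50 in RT, that of Zdbf2 -0.78 in ST and -0.74 in RT, and that of Snrpn -1.24 in LT and, no longer called, -0.09 in ST (adjusted p = 0.31). The summed gonadal somatic markers went from between 50.8 and 93.2 in the 1dEB libraries to between 287.5 and 463.6 in the 1dMeioLC libraries of these lines, which had been cultured with gonadal somatic cells, and their part in these changes was not tested. The splits depend on the scaling: with TPM as deposited they were 22 and 8 in ST and 26 and 4 in RT, and with quantile normalization 21 and 9 in ST and 22 and 7 in RT. The median over all genes was -0.14 in LT, -0.20 in ST and -0.52 in RT, and with TPM as deposited 0.19, 0 and 0.30. Snrpn in RT changed direction, from -0.59 to 0.51 with TPM as deposited, as did Ube3a (-0.31 to 0.67) and Nnat (-0.24 to 0.81), each past the threshold, and Ube3a also with quantile normalization (0.22). Directions not past the threshold after the change were those of Peg10, Slc22a18 and Peg13 in RT (0.16, 0.03 and 0.09 with TPM as deposited), Phlda2 in ST (0.10) and Nnat in LT (0.04). The RT calls for Rian (-1.15) and Ascl2 (-1.80) were lost with TPM as deposited (adjusted p = 0.065 and 0.052).

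In PGCs of the embryo, 1 day of the same co-culture went with higher levels of most imprinted genes. Of the 38, 28 were higher and 3 lower in PGC-1dMeioLC than in E10.5PGC, where 46% of all genes were called, 33.4% higher and 12.6% lower. At least 2-fold changes were called for 21 higher and 3 lower members, against 25.3% of all genes, 20.4% higher and 4.97% lower. The median change was 1.18 over the 38 genes and 0.18 over all genes. By copy, 17 of 23 paternally expressed and 10 of 14 maternally expressed genes were higher. Igf2 stood at 14.1 and 14.004 scaled TPM in E10.5PGC and at 274 and 270.0 after culture (4.18, SE 0.08, adjusted p = 1.84e-10). H19 stood at 65.4 and 67.9 before culture and at 1193 and 1109.7 after it (4.09, SE 0.06, adjusted p = 3.76e-11). Mest stood at 39.8 and 41.8 before culture and at 310.3 and 315 after it (2.91, SE 0.08, adjusted p = 1.11e-09). All 3 were several-fold higher in both cultured libraries. Cdkn1c, a maternally expressed inhibitor of cyclin-dependent kinases, was higher by 2.68, Grb10, a maternally expressed adaptor that dampens insulin and IGF signalling, by 2.67, and the paternally expressed transcription factor gene Plagl1 by 2.66. Airn (2.54), Nnat (2.43) and Gnas (2.25) were higher too. The 3 lower genes were Snrpn, at 229.6 and 221 before and 69.8 and 69.1 after culture (-1.68, SE 0.08, adjusted p = 4.31e-08), Slc22a18 (-1.45) and Phlda2, which fell from 954 and 964 to 444 and 467 (-1.07, SE 0.06, adjusted p = 2.96e-07).

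Markers of several cell types changed with them in the cultured PGCs. All 11 gonadal somatic markers were called higher, with a sum of 43.4 to 46.1 in E10.5PGC, where 10 of 11 were at 1 or more on average and Foxl2 was listed at 0, and 395.9 to 406.0 in PGC-1dMeioLC. Of 14 stroma markers 13 were called higher, with a sum of 14.9 to 17.0 and Mgp listed at 0 in E10.5PGC against 845.8 to 872.9. Of 10 early PGC markers 9 were lower and none higher, with a sum of 5759 to 5778 in E10.5PGC and 998 to 1001 in PGC-1dMeioLC. All 8 late germ cell and meiosis markers were higher, from a sum of 643 to 653 to one of 2952 to 3005. Of 7 blood and endothelial markers 2 were higher and 2 lower, and their sum was 1326 to 1336 before and 790.3 to 821 after culture. Mitochondrial genes held 9.75% to 9.79% of TPM before and 14.8% to 14.9% after culture, and the ribosomal RNA-like pair 0.656% to 0.72% before and 3.81% to 4.02% after it. The part of these markers and shares in the imprinted gene changes was not tested. With quantile normalization the counts were 20 higher and 4 lower, and Airn was higher by 1.49. Under it 8 calls were lost, those of Asb4, Magel2, Rian, Kcnq1ot1, Ppp1r9a (0.26, adjusted p = 0.060), Nap1l5 (0.47, adjusted p = 0.28), Usp29 (-0.26) and Zdbf2 (-0.11), of which Usp29 and Zdbf2 also changed direction, while Nap1l5 also missed the threshold on leaving out each of the 4 libraries in turn (adjusted p = 0.054 to 0.18).

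**Figure D4:**
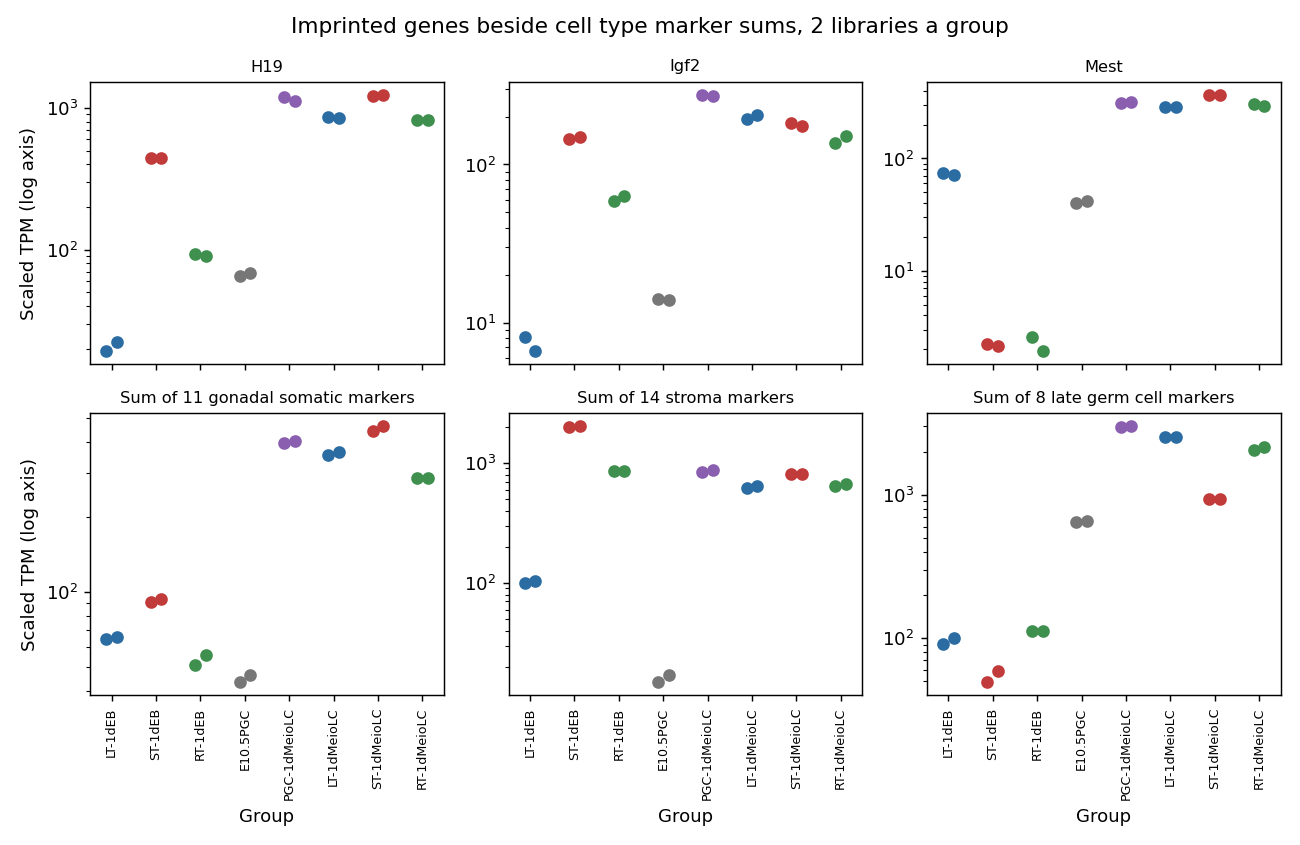
Scaled TPM (log axis) of H19, Igf2 and Mest in each library (top) beside the summed scaled TPM of 11 gonadal somatic, 14 stroma and 8 late germ cell markers (bottom), 2 points per group. The gonadal somatic sum is 287.5 or more in all 8 libraries after co-culture and 93.2 or less in the other 8, and the stroma sum of ST 1dEB, 2003 to 2026, is the highest of all groups.

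The LT 1dMeioLC cells and the PGC-1dMeioLC cells, which went through the same co-culture, differed by less than 2-fold in each imprinted gene called. Of the 38, 2 were higher in LT 1dMeioLC, namely Snrpn (0.40) and Phlda2 (0.27), and 10 were lower, where 18.8% of all genes were called, 7.24% higher and 11.5% lower, and no member was called at 2-fold or more, against 5.96%. The lower genes were H19, Igf2, Igf2r, Peg3, Asb4, Ube3a, Meg3, Grb10, Cdkn1c and Gnas, with changes between -0.17 for Gnas and -0.89 for Asb4. The LT 1dMeioLC libraries of Asb4 stood apart, at 8.35 and 5.05 scaled TPM, against 13.7 and 12.3 in PGC-1dMeioLC, so that change is close to 2-fold and uncertain. With TPM as deposited 6 were higher and 8 lower, and Grb10 (adjusted p = 0.087) and Gnas (adjusted p = 0.90) were not called, while with quantile normalization Phlda2 (adjusted p = 0.069) and Gnas (adjusted p = 0.058) were not.

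Genes that set or keep imprints differed between ST and LT at both stages. Of 24 such regulators, 2 were higher and 14 lower in ST 1dEB, and 13 were higher and 3 lower in ST 1dMeioLC, beside 35.2% and 28.8% of all genes called. The de novo DNA methyltransferase genes Dnmt3b and Dnmt3a changed in ST 1dEB by -1.06 and -1.05 (SE 0.12 and 0.08), with Dnmt3b at 424 and 436 scaled TPM in LT and 200.6 and 210.8 in ST. Ezh2, of the Polycomb repressive complex, changed by -1.34 (SE 0.09). Dppa3, which shields maternal methylation in the mouse zygote and also marks PGCs, was lower at 1dEB (-1.38, SE 0.07, adjusted p = 1.22e-07) and at 1dMeioLC, where it stood at 865 and 816 in LT and 48.8 and 52.4 in ST (-4.03, SE 0.07, adjusted p = 6.79e-10). Zfp57 was lower at 1dEB (-0.56, SE 0.14, adjusted p = 0.0087) and higher at 1dMeioLC, at 7.02 and 8.94 in LT and 31.0 and 33.1 in ST (1.89, SE 0.14, adjusted p = 1.10e-05). Cell type markers moved beside these regulators at both stages. At 1dEB the stroma sum was 99.8 to 104 in LT and 2003 to 2026 in ST. That of 10 early PGC markers, of which 4 were higher and 5 lower, was 771 to 778 in LT and 623 to 629 in ST. At 1dMeioLC the early PGC sum was 1004 to 1052 in LT and 217 to 226 in ST, and most of the LT sum was that of Dppa3, which is in both lists. The part of these markers was not tested.

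Of 40 other imprinted genes 36 could be tested, and 15 were higher and 10 lower in ST 1dEB, where 35.2% of all genes were called. In ST 1dMeioLC 9 were higher and 4 lower (36.1% of the 36), beside 28.8% of all genes. The largest changes at 1dEB were those of Tfpi2 (4.33, SE 0.25) and Dcn (4.04, SE 0.10), the latter of which is also 1 of the 14 stroma markers. Snurf, which shares its transcript with Snrpn, changed by -1.55 (SE 0.22). Of 16 genes of the IGF pathway, 7 were higher and 4 lower in ST 1dEB, beside the same 35.2% of all genes. Higher were the binding protein genes Igfbp6 (3.27, SE 0.20), Igfbp4 (2.55, SE 0.08) and Igfbp7 (1.87, SE 0.08), and lower were Igfbp2 (-1.39, SE 0.08) and the RNA-binding protein genes Igf2bp3 (-1.26, SE 0.10) and Igf2bp1 (-1.17, SE 0.07). At 1dMeioLC, 5 were higher and 2 lower (43.8% of the 16), beside 28.8% of all genes, with Igfbp6 at 2.13 (SE 0.20) and Igfbp4 at 1.09 (SE 0.08). All 14 stroma markers were higher in ST 1dEB too, and 6 higher and 4 lower in ST 1dMeioLC, and their part in these changes was not tested.

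The 15 members with no 2-fold call between lines at either stage were Peg3, Usp29, Zim1, Sgce, Asb4, Ndn, Mkrn3, Ube3a, Rtl1, Plagl1, Grb10, Cdkn1c, Impact, Slc38a4 and Nap1l5. Their library values ranged from 41.9 to 215 scaled TPM for Impact, a paternally expressed regulator of translation, and from 48.3 to 225 for Peg3. Grb10 ranged from 6.59 to 70.3, Cdkn1c from 31.5 to 223, and the amino acid transporter gene Slc38a4 from 26.3 to 79.5. Usp29 and Nap1l5 stayed below 4 scaled TPM in all 16 libraries, with highest values of 3.47 and 2.98. TPM give no counting error for values this low, and the change of Nap1l5 between ST and LT at 1dMeioLC (-1.27, SE 0.44) did not pass the test (adjusted p = 0.056).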

How the data were processed

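RNA-seq of 16 libraries (8 groups of 2) was used. The authors deposited 1 table of TPM per gene symbol and library. Named in the submitters' processing notes, with no role, are mm10, DESeq2, RSEM, Bowtie2, HISAT2 and R 3.4.2. A further 12 columns, under 6 names that each occur more than once, were not used. TPM hold no read depth, so no counting interval is given. Each library was scaled so that 21771 nuclear protein-coding genes (GENCODE M21) summed to 1000000. Genes with at least 1 scaled TPM in at least 2 libraries were kept (26820), and log2(scaled TPM + 1) was fitted with limma 3.58.1 in R 4.3.3, as group means with a mean-variance trend and no replicate block, after the script was tested on simulated data. P-values were adjusted by Benjamini-Hochberg over all genes within each of 12 comparisons, and an exact permutation test of 2 against 2 libraries cannot go below 0.333. Members called at least 2-fold different between lines at 1 stage were given with their library values, and other members and listed genes were named after their values were seen. The members and gene lists were chosen with earlier results of these data known. Alternatives were TPM as deposited, quantile normalization, a pseudocount of 0.1, no filter, a replicate block, only the libraries compared, leaving out each library, and, chosen after seeing the data, leaving out both RT 1dEB libraries. Promoter and microRNA sequences are RefSeq's (GRCm38.p6), positions GENCODE M21's.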

Additional observations from a re-analysis of the deposited data

Results flagged for a closer look

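The difference between ST and LT differed between 1dMeioLC and 1dEB by at least 1 on the log2 scale for 19 imprinted genes, by limma's test of that difference adjusted over all genes. By the same rule 20% of all genes were called, 8.18% higher and 11.8% lower. In each case the value is the ST minus LT difference at 1dMeioLC minus that at 1dEB, so that a negative value means that ST was higher relative to LT at 1dEB than at 1dMeioLC.

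Negative values were found for 12 genes. The largest were those of Igf2 (-4.30, adjusted p = 1.52e-08), H19 (-3.83, adjusted p = 9.17e-09), Peg13 (-2.37) and Slc22a18 (-2.00). The Dlk1-Dio3 locus gave 5 of them, with Meg3 at -1.93, Dlk1 at -1.55, Rian at -1.37, Dio3 at -1.21 and Mirg at -1.14. The others were Airn (-1.73), Igf2r (-1.25) and Gnas (-1.05).

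Positive values were found for Mest (4.87, adjusted p = 9.17e-09), Ppp1r9a (1.58), Snrpn (1.45), Zdbf2 (1.36), Nnat (1.27), Kcnq1ot1 (1.25) and Mkrn3 (1.11). The adjusted p of the genes given without one lay between 1.19e-06 for Gnas and 0.0138 for Mkrn3.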

How the results depend on the processing

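Of 144 combinations of member and comparison that were called at 2-fold or more, 133 passed the threshold under every alternative that gave them a value and 11 lost the call under some, 6 of them when 1 library was left out. None changed direction. Of the 133, 5 had no value under some alternative, namely 4 for Dio3, which was below the filter with TPM as deposited and with quantile normalization, and 1 for Magel2, which was below it with only the libraries compared. The count of called members between RT and ST at 1dMeioLC fell from 18 to 11, and that between RT and LT from 7 to 4, with only the libraries compared in the fit, where 33 and 32 of the 38 members passed the filter and fewer samples gave the spread. The share of all genes called fell too, from 29% to 27.7% for RT against ST and from 13.4% to 10.4% for RT against LT. Leaving out 1 library at a time gave counts of 10 to 13 for ST against LT, 11 to 15 for RT against ST and 4 to 6 for RT against LT at 1dMeioLC, and at 1dEB 23 to 25, 11 to 16 and 21 to 23 in the same order. A group left with 1 library is then assumed to vary like the others, and each of these fits also called a smaller share of all genes. The Mkrn3 difference between stages (1.11) missed the threshold with only the libraries compared (adjusted p = 0.056) and without LT 1dMeioLC replicate 2 (1.01, adjusted p = 0.052), and that of Mirg with a pseudocount of 0.1 (-0.55, adjusted p = 0.63). The same replicate number did not mark samples that deviated together, with correlations of -0.03 to 0.04 over 28 pairs of groups. A replicate block gave 24 called members for ST against LT at 1dEB and 15 at 1dMeioLC, beside 34.8% and 28.3% of all genes. TPM keep no read depth, so that values near 1 cannot be given a counting error.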
